A study of Mus musculus with 4 samples.

Results

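The interferon-stimulated genes described here are a set of 39 mouse genes named by symbol, of which 37 had an identifier in all 4 single-cell matrices of the series and could be compared, out of 30406 genes shared by those matrices. Mx1 was listed for the wild-type libraries only, with 7, 5 and 1 UMIs (unique molecular identifiers, each counting 1 captured RNA molecule), and Mx2 was not analysed here. The members were chosen by name, with earlier results of these data known. The cells came from dissociated mouse common bile duct, the extrahepatic tube that carries bile to the gut, captured with 10x Chromium 3′ chemistry. One library has the genotype Prom1_BcatGOF, which the series design describes as mosaic Ctnnb1 gain of function (Ctnnb1 encodes beta-catenin, the effector of Wnt signalling), and it is called the GOF library below. The other 3 libraries are wild type, and the labels give no treatment for any of the 4. The labels and design text do not give age, the cells in which the driver acts, any inducing agent or the share of recombined cells. They also do not tell separate animals from repeated captures for the wild type, and p-values measure only the spread between these libraries, which may be technical. The design text speaks of 3 replicates, and 1 GOF library is analysed here, so genotype and library cannot be told apart.

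Interferons are secreted alarm signals. Type I and type III interferons act through the kinases Jak1 and Tyk2 to assemble a complex with Stat2 and Irf9 that binds the interferon-stimulated response element (ISRE) in target promoters, while Irf1 belongs mainly to the response to interferon-gamma. The targets include RNA-binding proteins that block viral translation, enzymes that make or respond to RNA-derived second messengers, membrane proteins that stop viral entry or release, and the sensors and transcription factors of the pathway itself. Barrier epithelia and tissue macrophages are among the cells known for such responses.

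The promoters of 7 members are shown because they carry the ISRE core and belong to genes whose epithelial level rose in the GOF library. Each is the 150 bases before the annotated start, on the gene's strand from 5′ to 3′ (RefSeq, GRCm38.p6), with matches on either strand to the core, GAAA followed by any 2 bases and then GAAA again, in capitals (on the other strand it reads TTTC, any 2 bases, TTTC). They lie at chr19:34640739-34640888 (Ifit1), chr19:34583379-34583528 (Ifit3), chr4:156200819-156200968 (Isg15), chr12:26456453-26456602 (Rsad2), chr5:120777660-120777809 (Oas3), chr8:71537473-71537622 (Bst2) and chr7:104465194-104465343 (Trim30a).
Ifit1: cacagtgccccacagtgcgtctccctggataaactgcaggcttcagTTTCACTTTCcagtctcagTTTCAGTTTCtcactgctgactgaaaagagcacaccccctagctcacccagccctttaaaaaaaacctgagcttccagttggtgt
Ifit3: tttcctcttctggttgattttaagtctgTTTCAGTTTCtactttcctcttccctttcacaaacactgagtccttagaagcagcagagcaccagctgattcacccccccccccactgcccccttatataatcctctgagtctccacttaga
Isg15: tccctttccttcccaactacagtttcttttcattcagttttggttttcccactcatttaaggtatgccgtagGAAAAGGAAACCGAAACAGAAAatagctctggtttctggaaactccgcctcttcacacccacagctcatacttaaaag
Rsad2: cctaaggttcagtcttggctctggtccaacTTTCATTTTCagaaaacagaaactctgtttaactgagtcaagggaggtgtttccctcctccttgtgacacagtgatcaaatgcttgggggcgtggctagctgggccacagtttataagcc
Oas3: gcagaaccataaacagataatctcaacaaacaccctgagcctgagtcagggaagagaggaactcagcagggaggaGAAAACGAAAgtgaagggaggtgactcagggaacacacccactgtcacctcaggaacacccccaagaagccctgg
Bst2: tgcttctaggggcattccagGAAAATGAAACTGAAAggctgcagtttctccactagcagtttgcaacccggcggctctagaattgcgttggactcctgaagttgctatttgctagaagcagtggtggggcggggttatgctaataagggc
Trim30a: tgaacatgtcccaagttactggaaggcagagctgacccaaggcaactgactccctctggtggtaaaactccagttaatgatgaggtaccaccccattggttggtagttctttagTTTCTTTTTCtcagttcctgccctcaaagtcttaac
Ifit1 holds 2 matches and Isg15 and Bst2 hold runs of overlapping matches, 3 in Isg15 and 2 in Bst2. The other promoters shown hold 1 match each. Over windows from 250 bases before to 50 after the start, 17 of the 29 members with a window held the core, which is 58.6%, against 3.99% of the 27025 genes with a window. The core was present in 10 of the 16 members that rose in GOF epithelium and in 7 of the 13 that did not pass the test there. A match describes the sequence and does not show binding.

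The GOF library held 10796 barcodes and 113596685 UMIs, and the wild-type libraries held 2649 to 6253 barcodes and 9558637 to 43737469 UMIs. Pairs of libraries shared 5 to 19 barcodes. Cells were assigned to a class by lineage markers detected in the raw counts. Barcodes whose best class had under 2 times the detected marker share of the next class were left out as possible doublets. These were 14.5% of GOF cells and 5.66% to 10.2% of wild-type cells that passed the quality limits. Kept cells could still hold some markers of other classes. Epithelial cells numbered 5113 in the GOF library and 3067, 1513 and 1249 in wild-type libraries 1, 2 and 3. Of these, 351 GOF cells and 849, 358 and 490 wild-type cells held no marker UMI of 9 other lineages. The 10 epithelial markers, among them Epcam and Krt19, were all detected in the epithelial cells of every library. The Wnt feedback genes Axin2 and Lgr5 read 112 and 20.3 CPM (the gene's UMIs scaled to the summed UMIs of that class and library) in GOF epithelium and at most 6.41 and 0.722 CPM in wild-type epithelium.

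In duct epithelium the interferon-stimulated genes were higher in the GOF library. Of the 37 members tested, 22 rose and 0 fell by edgeR's quasi-likelihood test on UMI sums per library at an adjusted p of 0.05. Among all 15708 genes tested, 11.4% rose and 3.9% fell. The median log2 fold change was 1.78 over the members and 0.0015 over all genes tested. The filter on low counts can pass a gene through the GOF library alone, but it removed no member here. Without that filter 25 of 37 members rose, where 9.25% of all genes tested rose. On the TMM scale, which corrects the libraries for composition, GOF epithelium exceeded each wild-type library for 35 of the 37 members and for 39.3% of all genes tested.

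**Figure D1:**
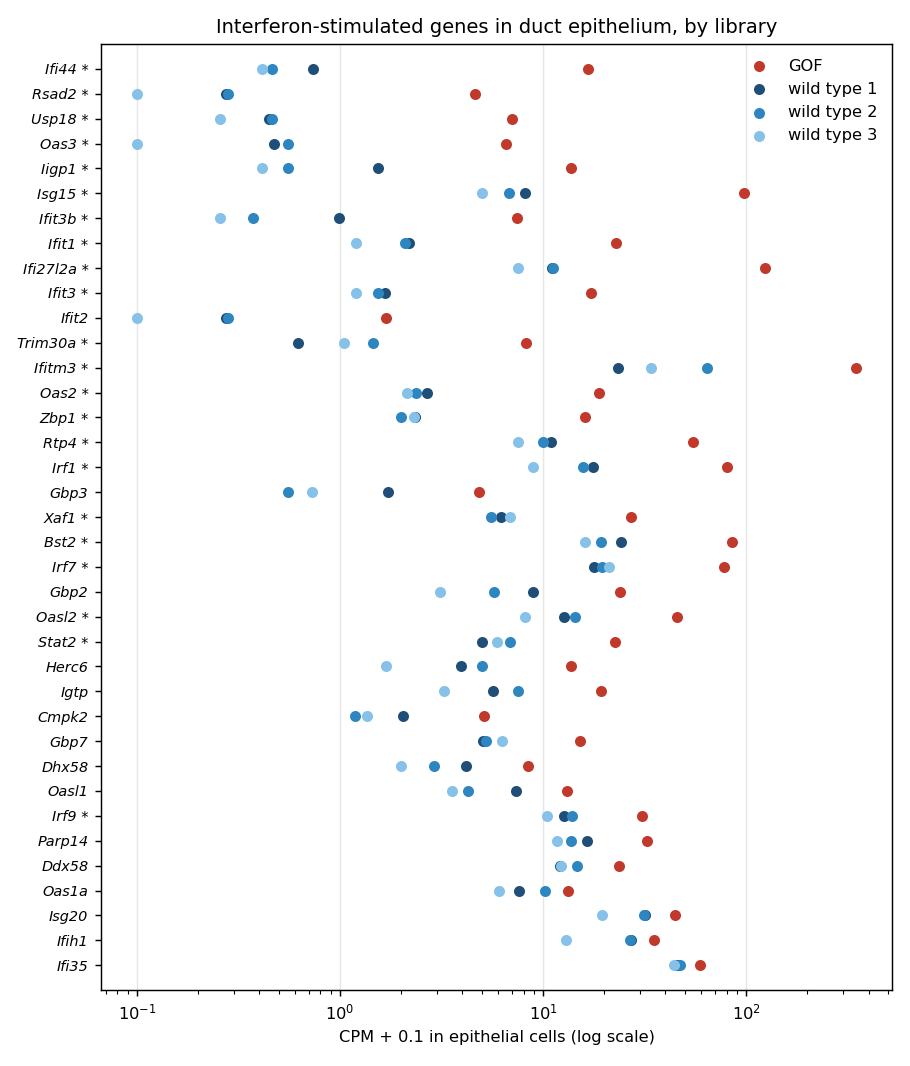
Level of each of the 37 members in epithelial cells of each library, as CPM plus 0.1 on a log axis, ordered by the fitted change; the 22 members marked with an asterisk passed the test in edgeR. The GOF point is to the right of the wild-type points for all 37 members on this scale, which is not corrected for composition and on which 56.6% of all genes tested also lie above the wild-type range.

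The largest group, the IFIT family and other effectors of type I interferon, had 7 of 10 members called. Isg15, a ubiquitin-like protein attached to other proteins during infection, read 97.1 CPM in GOF epithelium and 8.01, 6.68 and 4.88 CPM in wild-type libraries 1 to 3. Its log2 fold change was 3.48 ± 0.24 (SE) with an adjusted p of 0.00222 in edgeR. Ifi44, an interferon-induced protein, read 16.5 CPM against 0.634, 0.361 and 0.315 CPM, a log2 change of 4.69 ± 0.43 (adjusted p = 0.00431), the largest fitted change among the members. The 3 wild-type libraries lay close together for both genes, and the GOF library stood well above them.

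Rsad2, the antiviral enzyme viperin, read 4.49 CPM against 0.173, 0.181 and 0 CPM, and Usp18, which removes Isg15 and damps interferon receptor signalling, read 6.88 CPM against 0.346, 0.361 and 0.157 CPM. Their log2 changes were 4.55 ± 0.76 and 4.08 ± 0.53 (adjusted p = 0.0188 and 0.00975). The wild-type sums behind these values were small, 8 UMIs for Rsad2 and 17 for Usp18 over the 3 libraries. Of the RNA-binding IFIT family, Ifit1, Ifit3 and Ifit3b rose. Ifit1 read 22.7 CPM against 2.07, 1.99 and 1.10 CPM (log2 3.28 ± 0.34, adjusted p = 0.00538), and Ifit3 read 17.2 CPM against 1.56, 1.44 and 1.10 CPM (3.23 ± 0.32, adjusted p = 0.00500). Ifit3b, a near copy of Ifit3 whose reads may be split between both, read 7.30 CPM against 0.893, 0.271 and 0.157 CPM (3.39 ± 0.73, adjusted p = 0.0372). The Ifit3b call was lost without wild-type library 2 (adjusted p = 0.0547), and its log2 change was 4.65 without library 1. Ifit2 (1.58 CPM against at most 0.181 CPM, adjusted p = 0.0746), Cmpk2 (adjusted p = 0.118) and the exonuclease Isg20 (44.4 CPM against 31.6, 31.2 and 19.3 CPM, adjusted p = 0.468) did not pass.

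Among the oligoadenylate synthetase family, whose active enzymes sense double-stranded RNA and activate RNase L, 3 of 5 members rose. Oas3 read 6.43 CPM against 0.374, 0.452 and 0 CPM (log2 3.94 ± 0.78, adjusted p = 0.0297). Oas2 rose by 2.62 ± 0.28 and Oasl2 by 1.59 ± 0.28 on the log2 scale (adjusted p = 0.00605 and 0.0214). Oas1a, at 13.1 CPM against 7.49, 10.1 and 5.98 CPM, and Oasl1, at 12.99 CPM against 7.23, 4.15 and 3.46 CPM, did not pass (adjusted p = 0.449 and 0.171).

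All 4 transcription factors of the set rose. Irf1, a factor of the interferon-gamma arm, read 80.5 CPM against 17.5, 15.5 and 8.81 CPM (log2 2.13 ± 0.32, adjusted p = 0.0138). Irf7, which drives type I interferon genes, read 77.2 CPM against 17.7, 19.3 and 20.9 CPM (1.62 ± 0.19, adjusted p = 0.00724). The GOF value exceeded every wild-type value for both. Stat2 rose by 1.57 ± 0.25 and Irf9, its partner in the ISRE-binding complex, by 0.93 ± 0.20 (adjusted p = 0.0174 and 0.0380). The Irf9 call was lost without wild-type library 2 or library 3 (adjusted p = 0.112 and 0.0516).

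Of the 4 nucleic acid sensors only Zbp1, a sensor of left-handed nucleic acid, passed, with 16.0 CPM against 2.25, 1.90 and 2.20 CPM (log2 2.53 ± 0.31, adjusted p = 0.00793). The RNA helicases Ifih1 (34.8 CPM against 26.9, 26.5 and 12.9 CPM), Ddx58 (23.4 CPM against 12.01, 14.6 and 12.1 CPM) and Dhx58 (8.29 CPM against 4.06, 2.80 and 1.89 CPM) had adjusted p-values of 0.653, 0.156 and 0.154. The difference between Zbp1 and the helicases was not tested.

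Both membrane restriction factors rose. Ifitm3, which blocks viral fusion, was the most abundant member, with 349 CPM in GOF epithelium against 23.3, 63.9 and 33.98 CPM (log2 2.74 ± 0.47, adjusted p = 0.0205). Bst2, or tetherin, which holds budding virus at the cell surface, read 85.3 CPM against 24.1, 19.1 and 16.0 CPM (1.72 ± 0.23, adjusted p = 0.0110). Among the 5 interferon-inducible GTPases, which act on the vacuoles of intracellular pathogens, only Iigp1 passed, with 13.7 CPM against 1.44, 0.452 and 0.315 CPM (3.60 ± 0.66, adjusted p = 0.0242). Its log2 change was 4.75 without wild-type library 1. Gbp7 and Igtp lay near the threshold with adjusted p-values of 0.0516 and 0.0603, Gbp2 and Gbp3 had 0.0740 and 0.127, and the fitted log2 changes of these 4 ran from 1.11 to 1.89.

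Of the 7 remaining members 4 rose. Ifi27l2a, a small interferon-induced membrane protein, read 123 CPM against 10.9, 11.0 and 7.39 CPM (log2 3.26 ± 0.22, adjusted p = 0.00221). Trim30a, a regulator of inflammatory signalling, read 8.14 CPM against 0.518, 1.35 and 0.944 CPM (2.82 ± 0.56, adjusted p = 0.0304). Rtp4 rose by 2.15 ± 0.22 and the pro-apoptotic Xaf1 by 1.78 ± 0.24 (adjusted p = 0.00538 and 0.0106). Parp14 (adjusted p = 0.0650) and Herc6 (0.0858) did not pass. Ifi35 was the least changed member, with 59.1 CPM against 45.5, 47.0 and 43.9 CPM and a fitted log2 change of -0.0037 (adjusted p = 0.992).

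Other measures moved with the epithelial result. Summed over their lists, 10 macrophage or monocyte markers read 198 CPM in the GOF epithelial cells and 19.9, 53.5 and 51.1 CPM in the wild-type ones, and 8 mesothelial markers read 143 CPM against 34.4, 37.7 and 22.0 CPM. The 10 fibroblast markers read 102 CPM against 31.7, 93.8 and 78.5 CPM, and the 8 pancreatic acinar markers read 201 CPM against 401, 649 and 6150 CPM. All markers of these 4 lists were detected in GOF epithelial cells, and 1 fibroblast marker in wild-type library 1 and 1 mesothelial marker in library 3 were at 0. In the subset of epithelial cells with no marker UMI of 9 other lineages (351 GOF and 358 to 849 wild-type cells, an alternative chosen after seeing the data), 14 of 30 members tested rose, with a median log2 change of 1.61, where 9.98% of all genes tested rose. The median mitochondrial share per barcode was 2.99% for GOF against 10.1%, 11.5% and 14.8% for wild type. In cells with at most 10% mitochondrial UMIs, a limit that left 4965 GOF epithelial cells and 707, 107 and 40 wild-type ones, 15 of 36 rose, against 7.34% of all genes tested. The matrices also differed in software version between the groups, and over all genes the fitted epithelial change moved with intron length, from a median of -0.407 for genes with at most 5 kb of intron to 0.819 for genes with over 50 kb. The 9 members with at most 5 kb of intron, a group that includes Isg15, Ifitm3 and Ifi27l2a, had a median of 2.74. The part of software version and mitochondrial share in the result was not tested further.

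Single cells were then compared at equal depth, each thinned to 2000 UMIs. In the GOF library 568 of 4459 epithelial cells had at least 5 of the 37 members detected, or 12.7% (exact Clopper-Pearson 95% interval 11.8% to 13.8%, counting error only). In wild-type libraries 1, 2 and 3 the share was 0.378% (11 of 2912 cells), 0.150% (2 of 1330) and 0.119% (1 of 838). Before thinning the shares were 63.8% against 21.02%, 15.7% and 7.995%. With 1 library against 3, no exact permutation test over libraries can reach 0.05, so the shares are given without a test. The mean number of members detected per thinned cell was 2.18 in GOF epithelium and 0.646, 0.729 and 0.507 in wild-type epithelium. In the subset without markers of other lineages the share was 9.09% (17 of 187 cells) against 0.266%, 0% and 0.366%.

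**Figure D2:**
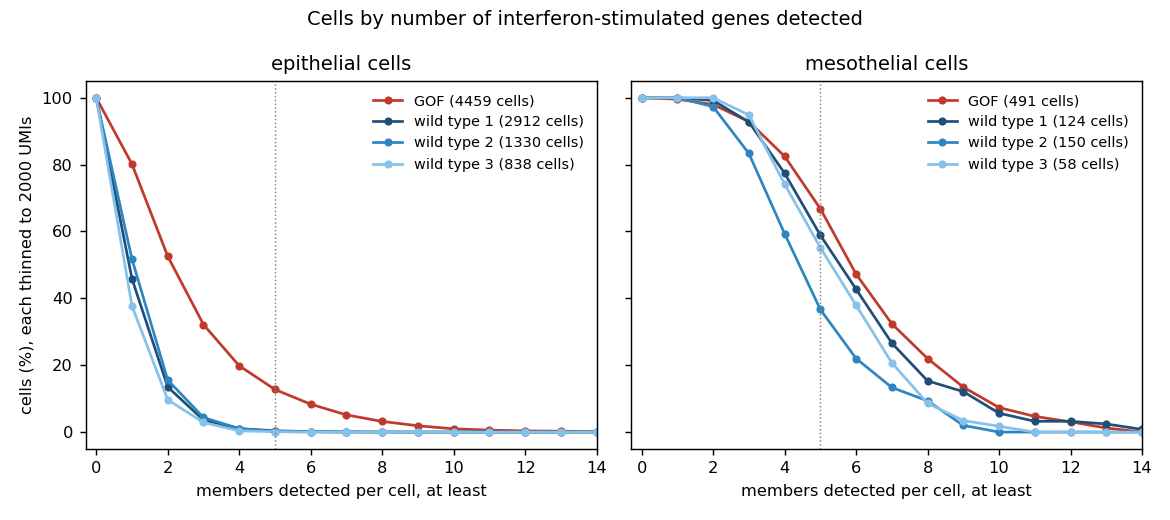
Share of cells (vertical axis, percent) with at least the number of members on the horizontal axis detected after thinning to 2000 UMIs, for epithelial cells on the left and mesothelial cells on the right, 1 line per library. At 5 members, the dotted line, GOF epithelium is at 12.7% and the wild-type epithelial lines are at 0.378% or lower, while the mesothelial lines run from 36.7% to 66.8%.

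Single members were each seen in a minority of GOF epithelial cells. At equal depth Ifitm3 was detected in 32.7% of them, against 4.36%, 11.8% and 5.85% in the wild-type libraries. Isg15 was detected in 12.8% against 1.61%, 1.73% and 1.19%, and Ifi27l2a in 14.9% against 1.72%, 2.03% and 1.07%. Irf7 was detected in 12.1% against 4.05%, 4.66% and 4.30%. In the same GOF library, 0 of 122 smooth muscle cells or pericytes, thinned alike, had 5 or more members. This allows a share of up to 2.46% (a floor of 3 cells of the total). Of the T or NK cells, 3 of 149 had 5 or more, or 2.01%. Mesothelial cells, fibroblasts, neutrophils and blood and lymphatic endothelium of that library had higher shares than its epithelium.

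GOF epithelial cells were also split by how many of 11 Wnt feedback genes they showed at equal depth. The share with at least 5 interferon-stimulated genes was 10.6% (95% interval 9.26% to 12.01%) in the 1986 cells with none, 13.9% in the 1130 cells with 1 and 15.0% (13.1% to 17.0%) in the 1343 cells with 2 or more. The cells with none were shallower before thinning, with a median of 8283.5 UMIs against 9299 in cells with 2 or more. The share in cells with no detected feedback gene was above that of every wild-type library. All of these cells come from 1 library, so the difference between the bins has no replicate.

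Tuft cells, the rare chemosensory cells of the epithelium, showed a rise in 8 of 26 members tested and a fall in 0, by edgeR, where 11.4% of all genes tested rose and 3.79% fell. The other 11 members were too low to be tested. The median log2 change was 1.57 over the members and -0.0052 over all genes. A member could pass the filter on low counts through the GOF library alone, as Ifit1 did, and could then hardly be found lower. Without that filter 13 of 37 members rose, where 8.52% of all genes tested rose. The GOF library held 231 tuft cells and the wild-type libraries 91, 67 and 58. Ifit1 had 66 UMIs in GOF tuft cells and none in the wild-type ones, at least 13.8-fold higher against a floor of 3 counts over the wild-type group (adjusted p = 0.00372). Isg15 read 97.0 CPM against 3.29, 5.20 and 16.3 CPM, a log2 change of 3.81 ± 0.49 (adjusted p = 6.82e-05) that ran from 3.14 without wild-type library 1 to 4.43 without library 3. Ifitm3 read 263 CPM against 10.7, 45.0 and 52.1 CPM (2.92 ± 0.46, adjusted p = 0.00045, and 2.21 without library 1). These 3 were the largest changes past the threshold.

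Ifi27l2a, Irf1, Oasl2, Rtp4 and Oasl1 also rose in tuft cells. Ifi27l2a read 352 CPM against 53.5, 27.7 and 68.3 CPM (log2 2.67 ± 0.33, adjusted p = 5.32e-05). Rtp4 and Oasl1 lost their calls without wild-type library 2 (adjusted p = 0.0625 and 0.139), and the log2 change of Rtp4 was 2.40 without library 1. Irf7, which rose in the main epithelium, lay within the wild-type range in GOF tuft cells, with 115 CPM against 99.5, 109 and 254 CPM (adjusted p = 0.468). The tuft count depended on the settings: DESeq2 called 3 members, and 14 were called without wild-type library 3.

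In 6 further classes no member was called in either direction by edgeR. Mesothelial cells had 32 members tested, macrophages or monocytes 23, fibroblasts 22, neutrophils 19, lymphatic endothelium 10 and blood endothelium 7. Of all genes tested, 7.87% rose in macrophages or monocytes, 7.49% in fibroblasts, 3.99% in mesothelial cells, 9.81% in blood and 11.1% in lymphatic endothelium, and 0.0362% in neutrophils, and the shares that fell were 2.09%, 1.97%, 0.652%, 4.41%, 5.00% and 0%. At an unadjusted p under 0.05, 1 member was higher and 3 lower in macrophages or monocytes, and 1 and 2 in fibroblasts. It was 4 and 1 in mesothelial cells, 2 and 0 in neutrophils, 2 and 1 in blood endothelium, and 0 and 0 in lymphatic endothelium. At that limit, 1288 of all 8099 genes tested were higher and 676 lower in macrophages or monocytes. The counts were 1033 and 565 of 6742 in fibroblasts, and 1323 and 547 of 10583 in mesothelial cells. They were 541 and 126 of 5518 in neutrophils, 416 and 256 of 2427 in blood endothelium, and 657 and 390 of 3720 in lymphatic endothelium. DESeq2 also called 0 in each of these classes. The median log2 change of the members was -0.59 in macrophages or monocytes, -0.25 in fibroblasts, -0.29 in lymphatic endothelium, 0.17 in mesothelial cells and 0.02 in both neutrophils and blood endothelium. The sign changed in fibroblasts without wild-type library 2 (0.15) or library 3 (0.04), in mesothelial cells without library 2 (-0.02) and in neutrophils without library 3 (-0.03).

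**Figure D3:**
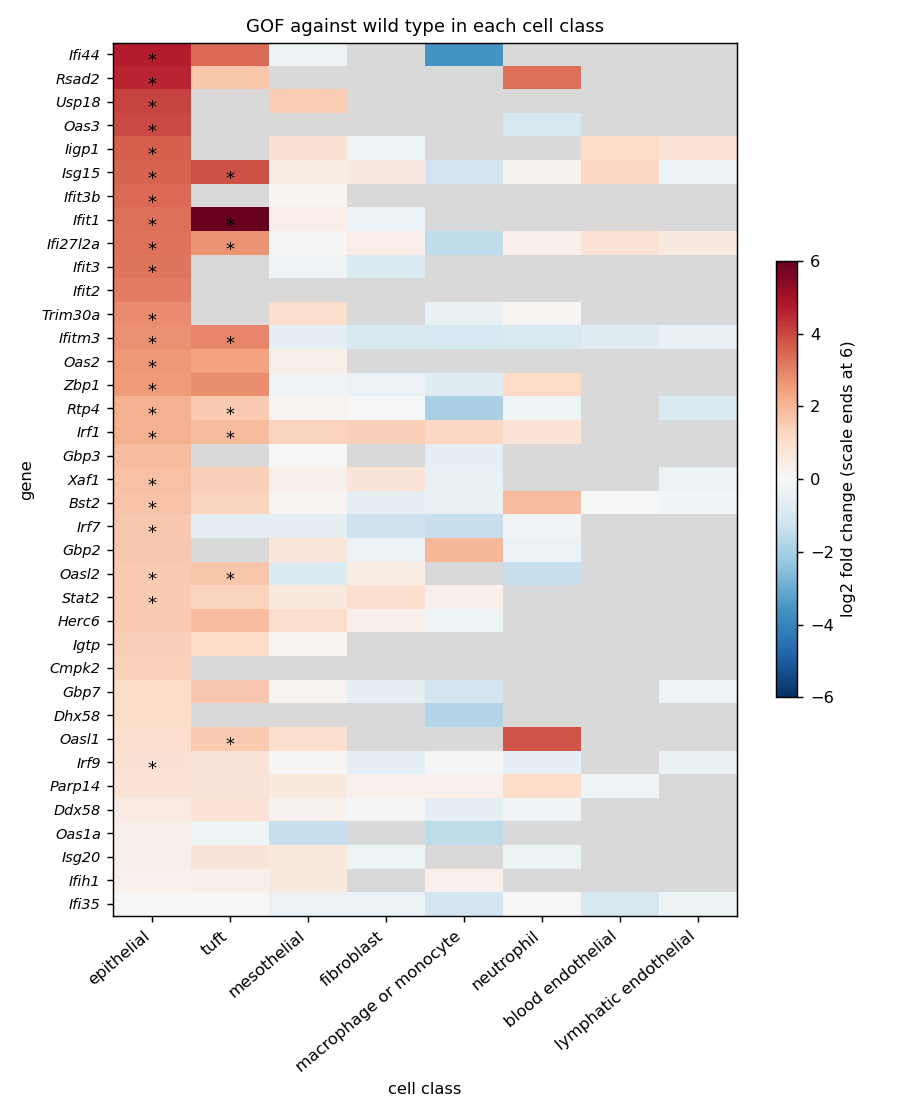
Fitted log2 fold change of each member, GOF against wild type, in the 8 classes tested, with red for higher and blue for lower in the GOF library, grey for members not tested and an asterisk for an adjusted p under 0.05 in edgeR. Asterisks stand in the epithelial column (22) and the tuft column (8) and in none of the other 6 columns.

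The most abundant members were also not called outside the epithelium and its tuft cells. In macrophages or monocytes Ifitm3 read 1327 CPM for GOF and 3880, 2034 and 2164 CPM for wild type (adjusted p = 0.270). Ifi27l2a read 157 CPM against 805, 256 and 233 CPM, Bst2 read 140 CPM against 183, 220 and 145 CPM, and Isg15 read 11.0 CPM against 24.7, 23.8 and 22.1 CPM (adjusted p = 0.225, 0.602 and 0.202). All 4 GOF values lay below the wild-type range, on CPM that is not corrected for composition. Of the 23 members tested, 18 had a fitted value below 0, as had 53.2% of all genes tested. Library 1 was the highest wild-type library for Ifitm3 and Ifi27l2a. In fibroblasts Ifitm3 read 1883 CPM against 2787, 3504 and 3395 CPM (adjusted p = 0.178), Ifi27l2a read 710 CPM against 515, 319 and 592 CPM, and Bst2 read 290 CPM against 260, 470 and 371 CPM. Of these only the GOF value of Bst2 lay within the wild-type range.

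A call in one class and not in another does not show that the classes differ. The GOF effect in epithelium was therefore tested against that in 3 other classes, with the library as a block. A member could pass the filter on low counts through epithelium alone, and could then hardly be found smaller there. Within each class the filter passed 23 members in macrophages or monocytes, 22 in fibroblasts and 7 in blood endothelium. Each fit holds 1 GOF library and pools spread over genes, so the very small p-values below do not measure variation between GOF libraries. Against macrophages or monocytes the effect was larger in epithelium for 10 of 37 members and smaller for 0, where 1.12% of all genes tested were larger and 0.709% smaller. The median difference was 2.52 log2 units over the members and -0.0749 over all genes. Isg15 differed by 4.67 ± 0.58 (adjusted p = 6.4e-08), Ifi27l2a by 4.59 ± 0.57 (6.4e-08), Rtp4 by 4.10 ± 0.63 (1.07e-05), Ifi44 by 8.47 ± 1.30 (1.18e-05) and Ifitm3 by 3.85 ± 0.62 (2.69e-05). In these cells Ifi44 read 0.716 CPM for GOF and 16.5, 3.57 and 6.31 CPM for wild type, and Rtp4 read 5.83 CPM against 26.4, 15.5 and 25.2 CPM. Without wild-type library 1 the difference was 7.83 for Ifi44 and 3.18 for Ifitm3. The others were Usp18, Irf7, Zbp1, Bst2 and Trim30a. Of these, Usp18 lost its call without wild-type library 3 (adjusted p = 0.109), and the differences of Irf7 and Trim30a were 2.30 and 2.36 without library 1, against 2.98 and 3.28 with all libraries, with 4.07 for Trim30a without library 2.

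Against fibroblasts the effect was larger in epithelium for 13 of 37 members and smaller for 0, where 0.987% of all genes tested were larger and 0.437% smaller, and the median difference was 2.18. Ifitm3 differed by 3.84 ± 0.46 (adjusted p = 1.11e-13), Isg15 by 2.96 ± 0.49 (5.93e-07), Irf7 by 2.86 ± 0.47 (8.81e-07), Ifi27l2a by 2.88 ± 0.48 (8.81e-07) and Iigp1 by 4.04 ± 0.70 (2.83e-06). In fibroblasts Isg15 read 65.0 CPM for GOF and 32.2, 25.8 and 59.8 CPM for wild type, Irf7 read 26.6 CPM against 34.9, 77.3 and 53.8 CPM, and Iigp1 read 30.1 CPM against 37.6, 35.4 and 20.9 CPM. Without wild-type library 1 the difference was 4.91 for Iigp1, 6.96 for Ifit3b, 4.26 for Oasl1, 3.46 for Zbp1 and 2.93 for Gbp2, against 4.04, 5.55, 3.54, 2.81 and 2.01 with all libraries. Ifit1, Ifit3, Ifit3b, Oasl1, Zbp1, Bst2, Gbp2 and Rtp4 were also called. Without library 2 the difference fell to 2.14 for Oasl1 and 2.12 for Zbp1, and without library 3 to 4.32 for Ifit3b and 2.39 for Ifit1, which is 3.48 with all libraries. Without wild-type library 2, 8 members were called, and 6 lost their call without library 2 or library 3 (Ifit1, Ifit3b, Oasl1, Zbp1, Gbp2 and Rtp4). Against blood endothelium, with 74 GOF cells and 28 to 54 wild-type cells, 2 of 36 were larger in epithelium, and 0 were smaller, where 0.189% of all genes tested were larger and 0.16% smaller. These were Ifitm3 (3.48 ± 0.29, adjusted p = 6.8e-28, and 2.86 without library 1) and Ifi27l2a (2.27 ± 0.56, adjusted p = 0.0168), whose call was lost without wild-type library 1 (log2 1.03). In cells with at most 10% mitochondrial UMIs, 4 of 31 members were larger in epithelium than in macrophages or monocytes, with a median difference of 2.29 and 0.296% of all genes larger. Against fibroblasts it was 0 of 31 by edgeR, with a median difference of 1.46 and 0.103% of all genes larger. At an unadjusted p under 0.05 it was 10 of 31 members and 283 of all 10719 genes tested. DESeq2 was not run on these cells.

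In the wild-type duct the summed level of the members was lower in epithelium than in the other classes measured with enough cells. Summed over the 37 members, wild-type epithelium read 339, 372 and 266 CPM, and mesothelial cells, the sheet that covers the duct, read 8919, 7352 and 7994 CPM. GOF epithelium at 1442 CPM lay between the 2 classes. Ifitm3 and Bst2 made up most of the mesothelial sum, and without them the values were 292, 289 and 216 CPM in wild-type epithelium, 1008 CPM in GOF epithelium and 2754, 1480 and 1758 CPM in wild-type mesothelium. In smooth muscle cells or pericytes this sum without Ifitm3 and Bst2 was 84.7, 123 and 141 CPM for wild type, below the epithelium, and 287 CPM for GOF, which was not tested because wild-type library 1 held 8 such cells. T or NK cells, with 15 in wild-type library 3, were not tested either and read 1255, 1059 and 1014 CPM against 992 CPM.

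**Figure D4:**
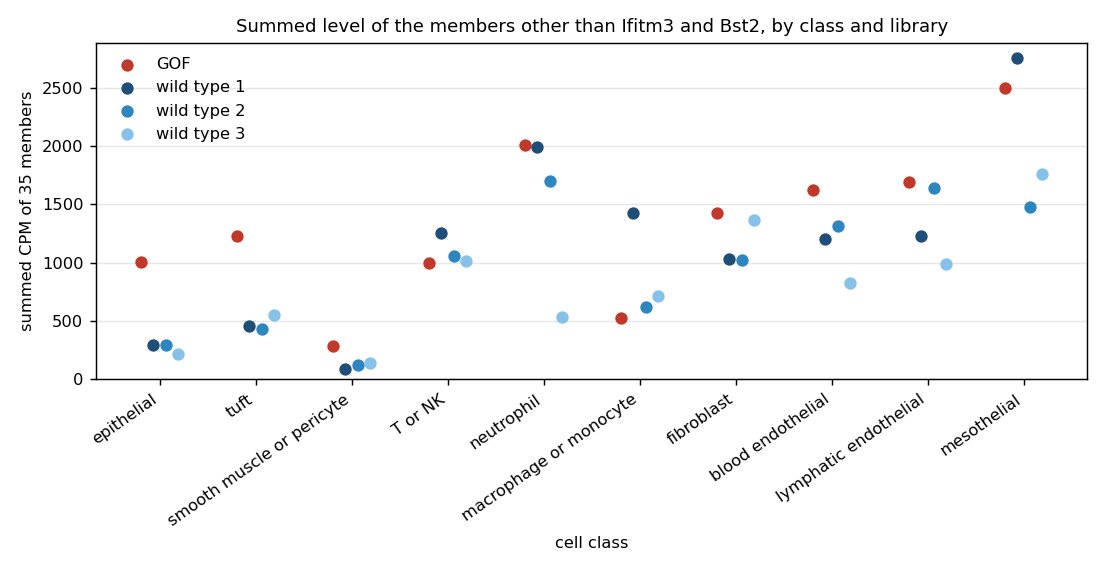
Summed CPM of the 35 members other than Ifitm3 and Bst2 in 10 cell classes, 1 point per library. GOF epithelium, at 1008 CPM, lies above the wild-type epithelial points (216 to 292 CPM), and in macrophages or monocytes the GOF point (523 CPM) is the lowest of the 4.

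Tested against wild-type epithelium with the library as a block, mesothelial cells were higher in 29 of 35 members and lower in 0, where 18.7% of all genes tested were higher and 17.5% lower. In each class, members too low to be tested are left out of these counts, and a member may have passed only because it is high there. Blood endothelium was higher in 17 of 29 (8.47% of all genes), lymphatic endothelium in 17 of 32 (12.5%), fibroblasts in 18 of 32 (16.2%), macrophages or monocytes in 15 of 29 (19.0%), neutrophils in 11 of 27 (8.70%) and tuft cells in 4 of 25 (7.95%). Without wild-type library 1 the count was 4 of 23 in neutrophils (3.05% of all genes) and 8 of 24 in blood endothelium (5.99%). In tuft cells it was then 2 of 23 (5.74%), and in lymphatic endothelium 11 (12.5% of all genes with all libraries). Lymphatic endothelium also had 11 without library 2, and blood endothelium had 11 of 30 without library 3 (5.63%). Members called lower than in epithelium were 1 in macrophages or monocytes, where 23.9% of all genes were lower, 2 in lymphatic endothelium (20.2%), and 0 in tuft cells (6.33%), neutrophils (14.6%), fibroblasts (17.9%) and blood endothelium (15.9%). Isg20 was lower in both classes with such calls, with 2, 4 and 1 UMIs in macrophages or monocytes and 0, 0 and 1 in lymphatic endothelium. The second lymphatic member, Oas1a, had no UMI there in any wild-type library, and its call was lost with any 1 library left out.

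Counts of 3′ tags do not scale with transcript length, and by CPM Ifitm3 was the highest member in 6 of these 7 wild-type classes, tuft cells being the exception. It read 4737, 4800.4 and 4357 CPM in wild-type mesothelium, 6429, 4824 and 3527 CPM in blood endothelium, and 5621, 5045 and 5023 CPM in lymphatic endothelium. These levels were far above the 349 CPM of GOF epithelium. Bst2 read 1428, 1072 and 1878 CPM in wild-type mesothelium, a difference from epithelium of 6.08 ± 0.26 log2 units (adjusted p = 1.67e-06), and Ifi27l2a read 1132, 314 and 402 CPM (5.70 ± 0.38, adjusted p = 8.64e-06). In blood endothelium Bst2 read 438, 376 and 209 CPM and Ifi35 read 177, 103 and 110 CPM, and in lymphatic endothelium Ifi27l2a read 469, 482 and 196 CPM and Bst2 469, 296 and 256 CPM. The GOF values were 370 and 73.9 CPM in blood endothelium and 619 and 335 CPM in lymphatic endothelium. In neutrophils Ifitm3 read 1429, 1922 and 1939.5 CPM (GOF 1005), Ifi27l2a read 340, 256 and 58.8 CPM (GOF 294), and Isg15 read 462 and 352 CPM in wild-type libraries 1 and 2 and 0 CPM in library 3, where 24 cells were summed. Neutrophil levels rest on 559, 25 and 24 cells.

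**Figure D5:**
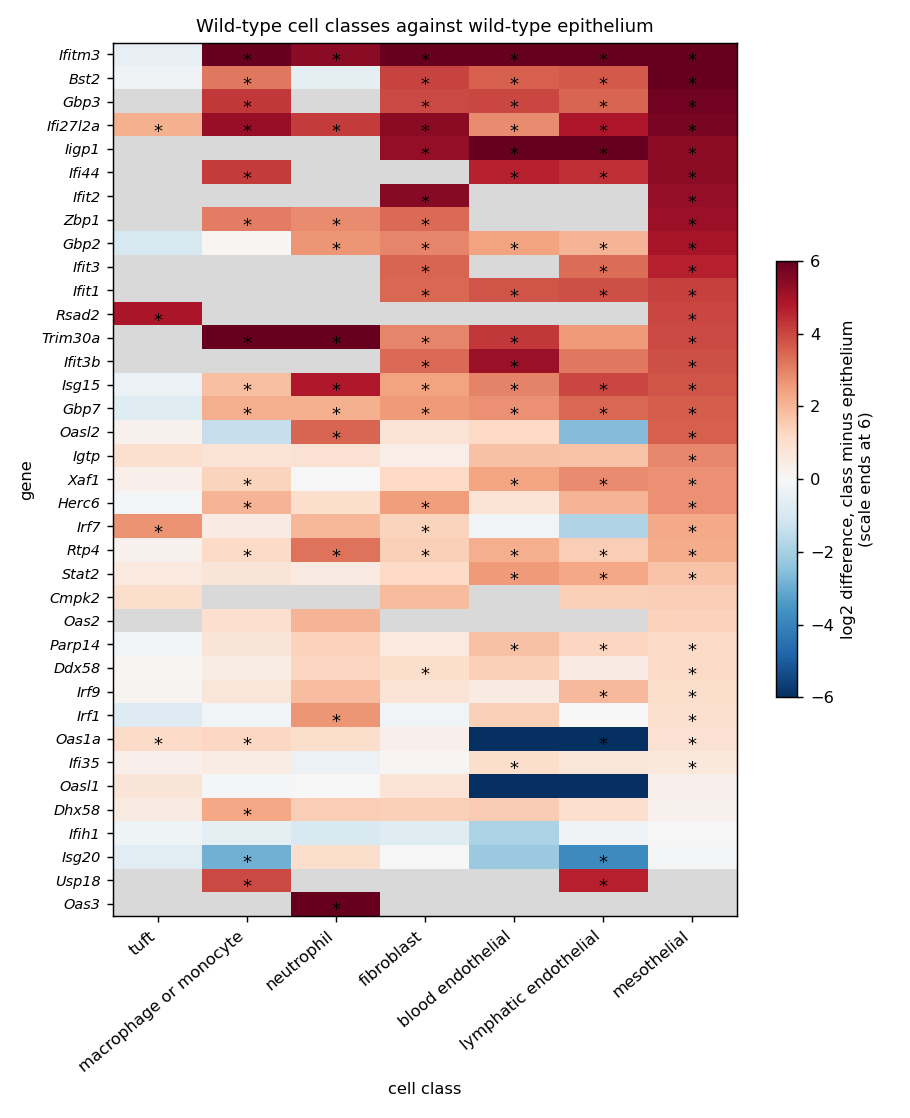
Log2 difference between each cell class and epithelium within the 3 wild-type libraries for each member, with red for higher and blue for lower than epithelium, grey for members not tested and an asterisk for an adjusted p under 0.05 in edgeR. The mesothelial column holds 29 asterisks and the tuft column 4; the dark blue cells for Oas1a and Oasl1 in endothelium are fitted values at very low counts and give no size.

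Tuft cells differed from the other epithelium of the wild-type duct in few members. Irf7 read 99.5, 109 and 254 CPM in wild-type tuft cells and 17.7, 19.3 and 20.9 CPM in wild-type epithelium (log2 difference 2.72 ± 0.18, adjusted p = 2.04e-10). Ifi35, the next highest member, read 56.7, 65.8 and 61.8 CPM and was not called. Ifi27l2a differed by 2.14 ± 0.26, Rsad2 by 4.89 ± 1.04 and Oas1a by 1.13 ± 0.29 (adjusted p = 2.21e-06, 0.0020 and 0.0106). The Oas1a call was lost without wild-type library 1 or 2. The Rsad2 difference rests on 4, 2 and 5 UMIs in tuft cells and 6, 2 and 0 in epithelium.

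At equal depth the share of cells with 5 or more members was also set beside other classes. In mesothelial cells it was 66.8% for GOF against 58.9%, 36.7% and 55.2% for wild type, and in fibroblasts 17.3% against 9.09%, 17.5% and 18.8%. In macrophages or monocytes it was 5.07% against 16.5%, 4.88% and 5.71%. The GOF value lay within the wild-type range in fibroblasts and in macrophages or monocytes, and above it in mesothelial cells. Tuft cells had 12.2% (27 of 222 cells) against 0%, 1.67% and 2.04%, where the 0 of 90 cells in wild-type library 1 allows a share of up to 3.33% by the same floor.

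The ligands and signalling genes of the pathway were read from the same sums. No UMI of Ifnb1, of the 4 interferon-alpha genes examined, of Ifne, or of Ifnl2 and Ifnl3 was found in any barcode of the 4 libraries. Ifnk had 16 GOF UMIs, 11 of them in epithelium, against 3, 0 and 0 in wild-type libraries 1, 2 and 3. Ifng, the gene for interferon-gamma, had 35 GOF UMIs, 31 of them in T or NK cells, against 7, 2 and 2. Scaled to the T or NK sums this was 51.8 CPM for GOF, within the wild-type range of 54.6, 23.5 and 63.4 CPM, which rest on 6, 1 and 1 UMIs.

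Of 14 receptor and signalling genes tested in epithelium 2 rose and 0 fell, a share near the 11.4% of all genes that rose there. Socs3, a feedback inhibitor of cytokine receptors, read 222 CPM in GOF epithelium against 11.4, 24.5 and 33.2 CPM (log2 2.90 ± 0.51, adjusted p = 0.0222). Ptpn2, a phosphatase that acts on Jak and Stat proteins, rose by 0.82 ± 0.20 (adjusted p = 0.0484). The receptor genes Ifnar1 (log2 -0.57), Ifnar2 (0.61) and Ifngr1 (-0.83) did not pass, with adjusted p-values of 0.127, 0.135 and 0.292. Among 12 genes of upstream sensing tested, also near that share, only Tlr4, the receptor for bacterial lipopolysaccharide, rose (2.15 ± 0.36, adjusted p = 0.0194). The Socs3 effect was larger in epithelium than in macrophages or monocytes (2.87, adjusted p = 0.00035) and than in fibroblasts (3.58, adjusted p = 7.34e-12). Against blood endothelium, where Socs3 also rose (log2 2.95, adjusted p = 0.00158), the difference was -0.03 (adjusted p = 1.0).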

How the data were processed

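The authors deposited raw UMI counts per gene and barcode. Per the file headers, the GOF matrix came from Cell Ranger 7.0.0 (32285 genes) and the wild-type ones from 3.0.2 (31053 genes); the submitters' processing notes name Cell Ranger 7.1 and mm10. Whether intronic reads were counted is not given in the sources used here. Software version and genotype cannot be told apart.

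Genes were joined by Ensembl identifier. Kept cells had at least 500 genes and at most 25% mitochondrial UMIs. A class needed at least 3 of its markers and a detected share at least 2 times that of the next class; a specialised class (tuft, mesothelial, lymphatic, plasmacytoid) took a cell from its kin at 50% of its markers. These gate limits were set after seeing the data. Counts were summed per library and class, with at least 20 cells in every library, and tested with edgeR 4.0.16 (quasi-likelihood, TMM, filterByExpr, Benjamini-Hochberg at 0.05, R 4.3.3). GOF against wild type left 2 residual degrees of freedom, and the lone GOF library was assumed to vary like the others. The differences of effect rest on the same lone GOF library, and their p-values draw on spread that edgeR pools over genes. The script was tested on simulated data. DESeq2 1.42.0 was an alternative. Shares used cells thinned to 2000 UMIs and scipy 1.17.1. Intron lengths came from GENCODE vM21. The members and lists were chosen with earlier results of these data known. Values per library follow a fixed rule: the 12 largest epithelial changes, the 3 highest members and 3 largest changes elsewhere, up to 5 per difference of effects, up to 4 per role that did not pass, the pathway genes past the threshold with Ifnar1, Ifnar2, Ifngr1 and Ifnb1 (1 further gene is not reported here), and Axin2 and Lgr5; Isg15 in macrophages or monocytes, the Socs3 differences of effect and Irf7 in GOF tuft cells were added after their values were seen.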

Additional observations from a re-analysis of the deposited data

Results flagged for a closer look

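The GOF effect on members differed between epithelium and another class by the test of that difference. It was larger in epithelium for 10 of 37 members against macrophages or monocytes, where 1.12% of all genes were larger. Against fibroblasts it was larger for 13 of 37 (0.987%), and against blood endothelium for 2 of 36 (0.189%). The fibroblast count was 4 with DESeq2 and 0 at 10% mitochondrial UMIs. Members could enter these counts through epithelium alone, and could then hardly be found smaller there. No group had enough libraries to test for 1 library apart from the rest.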

How the results depend on the processing

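No paired analysis was possible because the GOF and wild-type groups share no replicate numbers; within the wild-type libraries, the fit with no replicate block called 1 lymphatic member lower in place of 2 and changed no other count by over 1.5 times.

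In epithelium 20 to 27 members rose with 1 wild-type library left out, where 6.99% to 14.6% of all genes rose. The count was 25 with DESeq2 (12.7% of all genes), 25 without the low-count filter (9.25%) and 29 without TMM (19.7%). It was 22 with a stricter gate (11.4%), 15 at 10% mitochondrial UMIs (7.34%) and 14 without markers of other lineages (share given above). When the genes tested were limited to 5 kb of intron or less, 6 of 9 members rose (1.76%). Dropping TMM moved the median of all genes by 0.38 log2. In tuft cells 6 to 14 rose with a library left out, where 8.2% to 14.7% of all genes rose. The count was 13 without the filter (8.52%), 3 with DESeq2 (3.66%) and 4 among genes with little intron (5.46%). In the classes with 0, leaving a library out gave 0 to 1 higher and 0 to 2 lower in macrophages or monocytes. Of all genes, 0% to 10.8% rose and 0% to 4.33% fell there. It gave 0 to 2 higher in neutrophils (2.11% to 7.69%) and 0 to 1 higher in mesothelium (4.83% to 8.71%). Fibroblasts had 0 to 1 each way (7.95% to 13.3% higher, 2.53% to 4.8% lower). Blood endothelium also had 0 to 1 each way (8.64% to 11.9% higher, 4.32% to 5.68% lower). Without TMM, 2 were higher in neutrophils (4.11%), 1 in mesothelium (5.1%) and 1 in blood endothelium (14.4%). Without the filter, macrophages or monocytes had 1 higher (5.87%) and 1 lower (1.88%). Mesothelium then had 1 higher (4.45%) and blood endothelium 1 higher (3.76%). At 10% mitochondrial UMIs, 2 were higher in neutrophils (5.92%).

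Differences of effect against macrophages or monocytes numbered 9 to 13 with a library left out (1.02% to 1.63% of all genes). At 10% mitochondrial UMIs they numbered 4 (0.296%). Against fibroblasts they numbered 8 to 13 with a library left out (0.853% to 0.911%), 4 with DESeq2 (0.228%) and 0 at 10% (0.103%). Against blood endothelium they numbered 1 to 3 with a library left out (0.118% to 0.198%), 4 without TMM (0.443%) and 1 with DESeq2 (0.0363%). Members above wild-type epithelium, with a library left out, numbered 2 to 3 in tuft cells (5.74% to 6.55% of all genes) and 4 to 11 in neutrophils (3.05% to 8.77%). They numbered 8 to 14 in blood endothelium (5.63% to 7.18%) and 11 to 14 in lymphatic endothelium (12.5% with all libraries). Members lower were 0 to 1 in tuft cells (2.84% to 3.35%) and 1 to 2 in lymphatic endothelium (20.2% with all libraries). Macrophages had 1 to 2 lower (17.8% to 20.8%), and 2 without the filter (16.2%). At 10% mitochondrial UMIs fibroblasts had 7 of 12 members higher (18.6% of all genes), and lymphatic endothelium had 8 higher and 0 lower. Lymphatic endothelium had 1 lower without TMM, without the filter, with DESeq2 and with the stricter gate. For this class the share of all genes is given with all libraries only, so its other counts have no background. Gbp7 in neutrophils reversed without wild-type library 1, where the log2 difference ran from -7.66 to 2.74 over the libraries left out (adjusted p = 0.745 at the reversal).

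The GOF epithelial share was 32.2% at 3 or more members, 3.18% at 8 or more, 4.21% at 1000 UMIs, 1.93% with members of little intron and 9.09% without other markers. In wild-type libraries 1, 2 and 3 it was 3.57%, 4.36% and 2.86% at 3 or more, 0.0343%, 0% and 0% at 8 or more, 0% in each with members of little intron, 0.764%, 0% and 0% at 10% mitochondrial UMIs, and 0.0991% and 0% in libraries 1 and 2 at 1000 UMIs. It was 0% in library 2 without other markers. The values of 0% at 10% mitochondrial UMIs rest on at most 107 cells in library 2 and 40 in library 3. The GOF share at that limit is not given here. Where a setting tests fewer genes or cells, fewer calls can follow; otherwise the cause was not tested. At 10% mitochondrial UMIs, tuft cells and blood endothelium had too few cells and were not run.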
